A study of Mus musculus with 12 samples.

Results

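Collagen transcripts differed widely among single cultured cardiac progenitor cells (CPCs), and the cells richest in them were set against the cells poorest in them. Of 12 sequenced cells, 11 were ranked by the summed CPM (the counts of a gene divided by all counts of the cell and scaled to 1000000) of Col1a1, Col1a2 and Col3a1. The 4 cells at the top of the ranking, cells 12, 8, 11 and 7, are called collagen-high, the 4 at the bottom, cells 2, 9, 1 and 3, are called collagen-low, and cells 6, 4 and 5 lay between them. These 8 of 12 cells carry the comparison. Cell 10 was left out of the ranking, and 8 endothelial markers summed to 9810 CPM in it and to 0.629 to 58.5 CPM in the others. CPM gives shares of a cell's counts, so a share can be lower in a cell because other genes take more.

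The study asked how culture alters the transcriptome of cells taken from the adult heart. All 12 cells belong to a single group and were sorted as c-Kit-positive, lineage-depleted non-myocytes from the hearts of female FVB mice aged 12 weeks. They were grown as an adherent culture on gelatin and passaged 5 times in medium with 10% serum, leukaemia inhibitory factor at 10 ng/ml, basic fibroblast growth factor at 10 ng/ml and epidermal growth factor at 20 ng/ml. Single cells were picked by mouth pipette after trypsin, and full-length cDNA libraries were sequenced as paired 75-base reads. Hearts were pooled for a preparation, and no label ties a cell to an animal, a dish or a batch, so cells are not replicates of a condition and no test was run. Kit, the gene of the sorted surface protein, had 0 counts in all 11 ranked cells, where 3 counts would be 0.527 to 0.869 CPM.

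Collagen-high and collagen-low cells also differed in the number of genes detected, before any gene is considered. The collagen-high cells held 10022 to 10181 genes with at least 1 count, and the collagen-low cells held 11216 to 11950. Total counts ran the other way, from 5258541 to 5690184 per cell in the collagen-high cells and from 3453708 to 4770276 in the collagen-low cells. The gap remained after every cell was thinned to 3453708 counts, with 9922 to 10084 genes in the collagen-high cells and 11187 to 11950 in the collagen-low cells. The 3 cells between the groups, with 11515 to 11876 genes, lay with the collagen-low cells. Cell 10 also had few genes, 10057, although its collagen sum of 12.2 CPM was under that of every ranked cell. In the 8 cells the collagen level and the number of genes detected cannot be told apart. For this reason differences are given beside the same difference within the 7 cells that had more genes, taken between cells 6, 4 and 5 and cells 9, 1 and 3. Both comparisons share cells 9, 1 and 3, so the second is no independent repeat of the first.

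**Figure D1:**
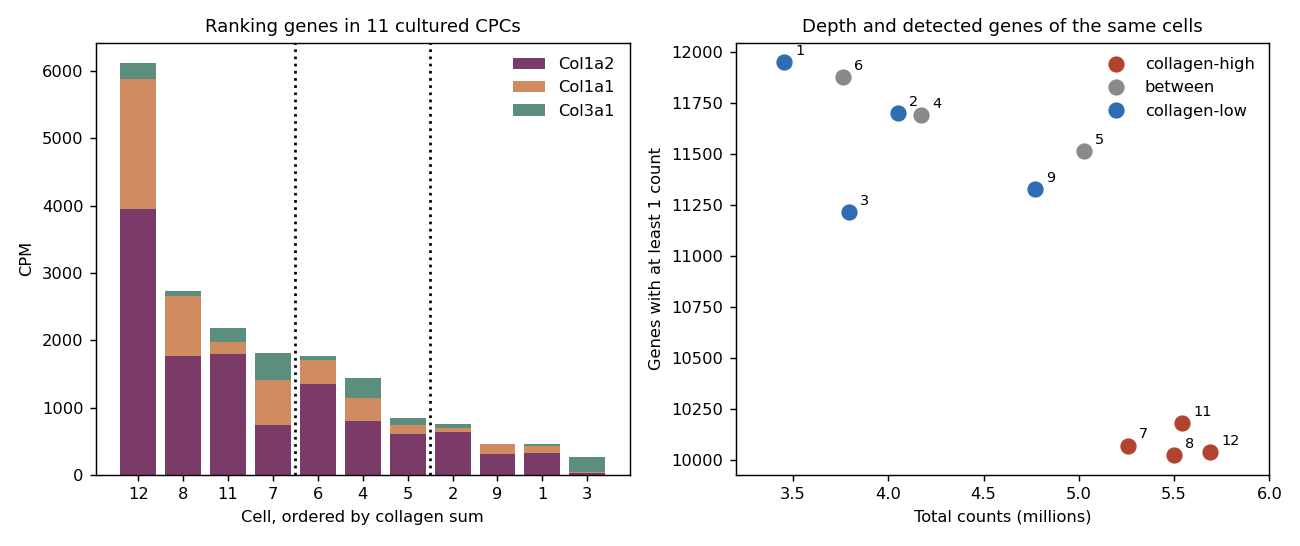
Left, stacked bars give the CPM of Col1a2, Col1a1 and Col3a1 in the 11 ranked cells, with dotted lines between collagen-high, between and collagen-low cells. Right, each point is a cell, with its total counts, in units of 1000000, against its number of genes with at least 1 count. The 4 collagen-high cells sit together at 10022 to 10181 genes, under all other ranked cells.

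Fibrillar collagens I and III are the main fibres of the interstitial matrix of the heart. Their chains are hydroxylated and folded in the endoplasmic reticulum (ER) with the help of dedicated chaperones, assembled into triple helices, secreted, trimmed and finally cross-linked. Fibroblasts and myofibroblasts are the main source of collagen in the heart, where TGF-beta, mechanical tension and the Yap and Tead factors are known to favour its production.

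The ranking values describe the choice of cells and are no result. In the order of the ranking, which is used for all values by cell, the collagen sum was 6118, 2733, 2177 and 1805 CPM in cells 12, 8, 11 and 7, 1767, 1440 and 838 CPM in cells 6, 4 and 5, and 749.6, 463, 458 and 266 CPM in cells 2, 9, 1 and 3. Cell 7, just inside the collagen-high group, therefore differed little from cell 6 just outside it, and cell 2 little from cell 5. Col1a2, the alpha-2 chain of collagen I (chr6:4504814-4541544, GRCm38), carried most of the sum in 9 of 11 cells. Its levels were 3946, 1763, 1789 and 744 CPM in the collagen-high cells, 1348, 792 and 599.9 CPM in the cells between and 637, 302, 323 and 22.1 CPM in the collagen-low cells. Col1a1, the alpha-1 chain (chr11:94936224-94953042), had 1941, 896, 182 and 671 CPM, 351, 353 and 139 CPM and 56.8, 152, 109.7 and 12.9 CPM in the same order. For both chains of collagen I every collagen-high cell lay above every collagen-low cell. Col3a1, the chain of collagen III (chr1:45311538-45349706), did not separate the groups. It had 231, 75.1, 207 and 391 CPM in the collagen-high and 56, 10.1, 25.2 and 231 CPM in the collagen-low cells. Cell 3, the lowest of all in the sum, had as much Col3a1 as cell 12, and Col3a1 was most of what it had.

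The comparison covered the 8409 genes, other than the 3 used for ranking, whose mean over the 11 cells reached 10 CPM. A gene was said to lie apart when all 4 collagen-high cells lay on one side of all 4 collagen-low cells and the group means of log2(CPM + 1) differed by at least 1. By this rule 104 genes lay apart with higher values in the collagen-high cells, 1.24% of the genes compared, and 105 lay apart with lower values, 1.25%, which makes 209 in all, or 2.49%. Where the requirement on size was dropped, 175 genes (2.08%) lay higher and 164 (1.95%) lower. Differences are given as collagen-high minus collagen-low on the log2(CPM + 1) scale, which understates the change of low genes, and their median over all genes compared was -0.09. Of all genes, 43.5% had a difference above 0. Genes that lay apart and lower were low expressed, with a median mean level of 26.4 CPM, against 51.6 CPM for the genes that lay higher and 46.3 CPM for all. In 32 of the 105 at least 1 collagen-high cell had no count. Some genes reached the mean of 10 CPM only through the group where they are high, the mean of the other 7 cells being lower: 16 of the 104 higher genes, with Avpr1a, Dixdc1, Fbln5, Mmp19 and Prag1 among those named, and 21 of the 105 lower genes, with Ada, Cd68, Gm5141, Mgam, Plcg2, Rhebl1, Rnf128, Sema3e and Vmn2r79. The cells between, which took no part in the rule, had a median between both group medians for 74 of the 104 higher genes and 70 of the 105 lower genes, against 31.2% of all genes, but genes that lie apart also leave more room between their groups.

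**Figure D2:**
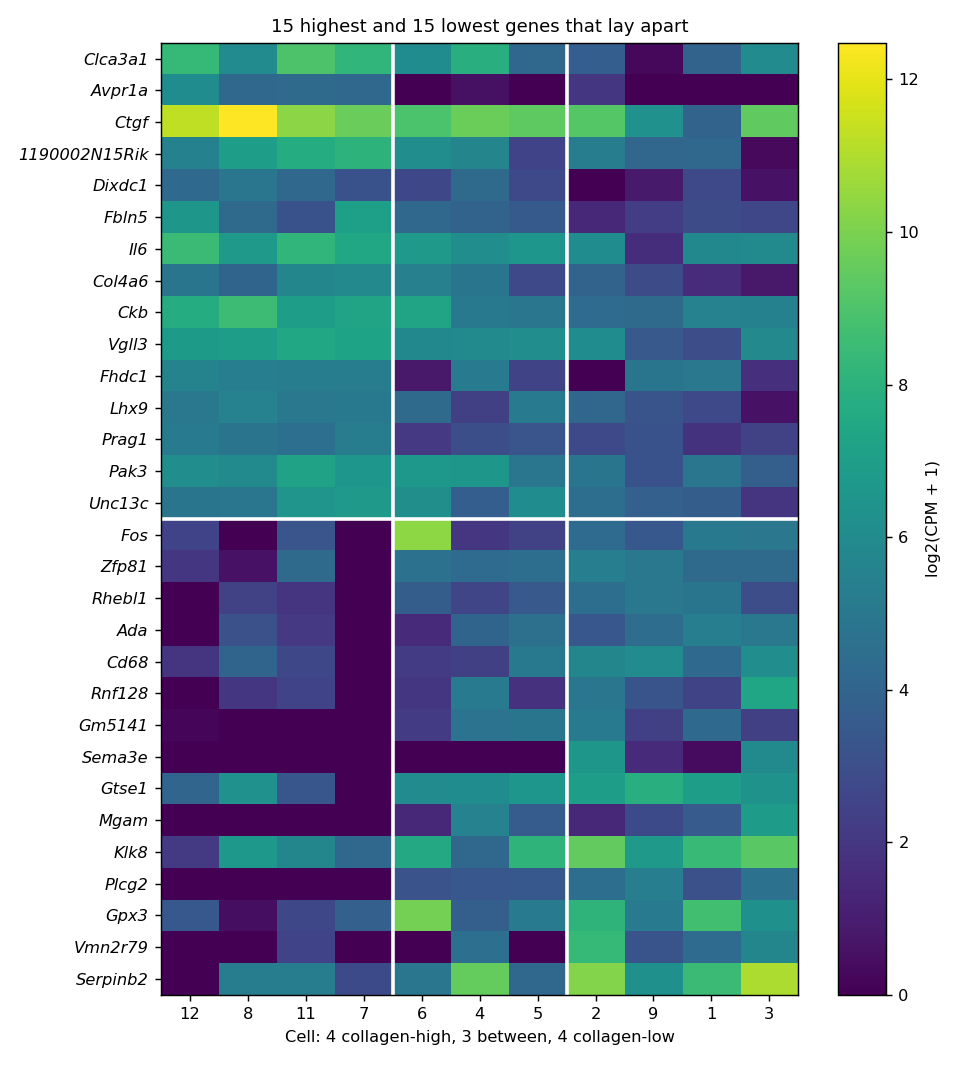
Colour gives log2(CPM + 1) of the 15 genes with the largest positive and the 15 with the largest negative difference among the genes that lay apart, in 11 cells ordered by collagen sum, with white lines between the groups of cells. Many of the lower genes have 0 counts in collagen-high cells, and cells 6, 4 and 5 take values of either side.

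The other collagens lay mostly higher in collagen-high cells. The counts listed 41 further collagen genes. Of these, 13 were compared, 12 of them had a difference above 0 and 2 lay apart, Col5a2 and Col4a6. The median difference was 1.38 in the 8 cells, 0.92 without cell 12 and 1.11 within the 7 cells with more genes. Col5a2, a chain of collagen V that co-assembles with collagen I fibrils and regulates their width (chr1:45374321-45503282), had 811, 275, 562 and 554 CPM in the collagen-high cells, 143, 273 and 246 CPM in the cells between and 186, 92.9, 66.3 and 179.8 CPM in the collagen-low cells, a difference of 2.09, with 1.03 within the 7 cells. The lowest collagen-high cell, cell 8, stood above the highest collagen-low cell, cell 2, while cell 6 lay among the collagen-low cells. Its partner chain Col5a1 had a difference of 1.48, and 1.49 within the 7 cells, without lying apart, because cell 8 with 82.5 CPM lay below cell 1 with 111 CPM.

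Network-forming collagens of the basement membrane were divided. Col4a6, a minor chain of collagen IV (chrX:141165403-141474076), had 27.9, 15.1, 52.9 and 57.4 CPM in the collagen-high and 14.8, 6.29, 2.03 and 0.791 CPM in the collagen-low cells, a difference of 2.80, with 2.59 within the 7 cells. The groups nearly met, at cells 8 and 2. The major chains Col4a1 and Col4a2, which lie head to head on opposite strands and overlap at their starts, had differences of 0.86 and 0.57 and did not lie apart. For these chains cell 2 had 470.4 and 309 CPM, above cell 8 with 422 and 245 CPM, and within the 7 cells the differences were -0.04 and -0.35. Col16a1 (difference 1.38), Col18a1 (1.62), Col4a5 (1.43), Col8a1 (1.51) and the microfibrillar chains Col6a1 (0.53), Col6a2 (0.57) and Col6a3 (1.02) overlapped between the groups. Their differences within the 7 cells were, in the same order, 0.63, 2.19, 1.35, 1.48, 1.11, 1.92 and -2.12. Col6a3 was uneven, with 182, 169.6, 0 and 0.571 CPM in the collagen-high cells and 0.247, 34.6, 64.6 and 0 CPM in the collagen-low cells. Cells 12 and 8 were rich in Col6a3 and cells 11 and 7 held almost none, whereas cell 8 had less Col6a1 than cells 11 and 7, 9.09 against 26 and 38 CPM. Col12a1, a fibril-associated collagen, was the single member below 0 in the 8 cells, at -1.68, with -1.19 within the 7 cells. Cell 12 led the list: its mean log2 level over the 13 genes was 7.14, against 5.80, 5.15 and 5.48 in the cells between and 4.38, 4.64, 4.82 and 4.64 in the collagen-low cells, while cells 8, 11 and 7 stood at 5.13, 5.27 and 5.30, about the level of the cells between.

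Genes that fold, modify and cross-link collagen lay slightly higher in collagen-high cells in the 8-cell comparison, at a median of 0.56 over 32 genes, of which 29 were above 0. Within the 7 cells with more genes the median was 0.02, and without cell 12 that of the 8-cell comparison was 0.28. Serpinh1, the collagen chaperone also called Hsp47 (chr7:99345376-99353239), lay apart. It had 765, 917, 1299 and 800.0 CPM in the collagen-high cells, 557, 462 and 104 CPM in the cells between and 449.6, 464, 274 and 176 CPM in the collagen-low cells, a difference of 1.54. The collagen-high cells were well clear of the others here, but within the 7 cells the difference was 0.09, and cell 5 had the lowest value of all. Loxl1, a lysyl oxidase-like enzyme that cross-links elastin and collagen (chr9:58287738-58313186), had 429.7, 245, 289 and 183 CPM in the collagen-high and 141, 92.7, 171 and 86.5 CPM in the collagen-low cells, a difference of 1.21, with 1.07 within the 7 cells. Cell 7 stood just above cell 1.

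The general machinery of the ER followed the same course. Of 35 genes for ER chaperones and the translocon 31 had a difference above 0, with a median of 0.36, and 0.03 within the 7 cells. The ones that lay apart were Hsp90b1 and Xbp1. Hsp90b1, the ER chaperone Grp94 (chr10:86690209-86705509), had 2044, 662, 1134 and 591 CPM in the collagen-high cells, 939, 609.7 and 565 CPM in the cells between and 539, 396, 361 and 536 CPM in the collagen-low cells, a difference of 1.11, with 0.69 within the 7 cells. Cell 12 held by far the most, and cell 7 was close to cell 2. Xbp1, a transcription factor of the unfolded protein response (chr11:5520659-5525893), had 301, 173, 241 and 279.5 CPM in the collagen-high and 118, 90.8, 144 and 78 CPM in the collagen-low cells, a difference of 1.21, with 0.66 within the 7 cells. Cell 6, the first cell under the collagen-high group, had 302 CPM of Xbp1, as much as cell 12. Hspa5, the chaperone BiP, had a difference of 1.00, and 0.30 within the 7 cells, without lying apart.

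Many ER chaperone genes share a promoter element, the ER stress element, to which the factors Atf6 and Xbp1 are known to bind. Its letters, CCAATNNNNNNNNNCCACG on either strand, were searched in the 250 bases before the start of each gene in RefSeq (GRCm38.p6, first start listed for a gene). They were present in 33 of 27025 promoters, 0.122%, and in 7 of the 28 promoters found for the ER genes compared, 25.0%. Among the 85 promoters found for genes that lay apart and higher, Hsp90b1 alone held the element, and no promoter of the 79 found for lower genes did. The element of each of the 7 genes is printed as read along the gene's own strand, with the fixed letters in capitals. Of these genes Hsp90b1 lay apart and the others did not.
Hsp90b1, chr10:86705638-86705656: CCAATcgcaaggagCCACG
Hsp90b1, chr10:86705533-86705551: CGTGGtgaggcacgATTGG
Hspa5, chr2:34772025-34772043: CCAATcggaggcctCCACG
Pdia6, chr12:17266491-17266509: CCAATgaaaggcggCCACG
Calr, chr8:84847075-84847093: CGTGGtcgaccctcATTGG
Canx, chr11:50325800-50325818: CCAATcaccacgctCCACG
Dnajc3, chr14:118937827-118937845: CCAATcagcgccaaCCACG
Creld2, chr15:88819520-88819538: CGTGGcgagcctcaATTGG

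Hsp90b1 held 2 copies in opposite orientation, beginning 212 and 107 bases before its start. The stretch that holds both copies is printed from the minus strand of chr10:86705510-86705694, with the copies in capitals.
Hsp90b1: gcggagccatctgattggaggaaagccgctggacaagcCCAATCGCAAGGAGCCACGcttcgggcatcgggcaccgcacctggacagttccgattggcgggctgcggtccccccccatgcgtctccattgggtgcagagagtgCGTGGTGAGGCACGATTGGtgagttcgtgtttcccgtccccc

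Among the genes with 1 copy the differences were 1.00 for Hspa5, 0.76 for the disulphide isomerase Pdia6, 0.69 for calreticulin (Calr), 0.16 for Dnajc3, -0.13 for calnexin (Canx) and -0.23 for Creld2. In the same order they were 0.30, 0.04, -0.00, -0.32, 0.11 and -0.55 within the 7 cells. Between collagen-high and collagen-low cells, the negative values, those of Canx and Creld2, lay near the median of -0.09 over all genes compared. The part of the element in these differences was not tested. Xbp1 itself had no match in its window.

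Elastic fibre genes had the third highest median of the lists with at least 5 genes, 1.01 over 13 genes with 11 above 0, and 0.90 within the 7 cells. Fbln5, fibulin 5, which guides the assembly of elastin onto microfibrils (chr12:101746565-101819055), lay apart in both comparisons. Its levels were 97.9, 18.9, 7.94 and 130.1 CPM in the collagen-high cells, 17.5, 14.9 and 10.5 CPM in the cells between and 1.73, 3.77, 6.37 and 5.27 CPM in the collagen-low cells, a difference of 2.98, with 1.31 within the 7 cells. It was abundant in cells 12 and 7 alone, and cell 11 lay under all 3 cells between. Ltbp1, which tethers latent TGF-beta to the matrix (chr17:75005568-75392512), had 351, 286, 205 and 251 CPM in the collagen-high and 158, 78.4, 155 and 109 CPM in the collagen-low cells, a difference of 1.15, with 0.63 within the 7 cells.

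The remaining matrix lists had medians under that of the elastic fibre genes. Proteoglycans had a median of 0.43 over 13 genes, 8 of them above 0, and 0.44 within the 7 cells, but -0.06 without cell 2 and -0.04 without cell 7. Gpc4, a cell surface heparan sulphate proteoglycan (chrX:52053021-52165252), lay apart in both comparisons, with 40.4, 28.2, 123 and 73 CPM in the collagen-high, 60.8, 64.9 and 47.8 CPM in the between and 24.4, 18.4, 15.9 and 6.33 CPM in the collagen-low cells. Its differences were 1.88 in the 8 cells and 2.12 within the 7 cells. Hspg2, perlecan of the basement membrane, had 52.9, 34, 93.1 and 39.9 CPM in the collagen-high and 17.5, 28.3, 26.3 and 14.5 CPM in the collagen-low cells, with differences of 1.25 and 1.32. Laminins and nidogens had a median of 0.69 over 6 genes and -0.10 within the 7 cells, and Lamc1, the laminin gamma-1 chain, lay apart with 281, 208, 139 and 257 CPM in the collagen-high and 113, 87.4, 51.8 and 139 CPM in the collagen-low cells. Its difference was 1.21, with 0.21 within the 7 cells, and cell 11 and cell 3 were nearly level.

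Adhesive glycoproteins had a median of 0.62 over 11 genes and none lay apart, with -0.36 within the 7 cells and -0.22 without cell 12. Thbs1, thrombospondin 1, an activator of latent TGF-beta, had 1231, 598, 1239.6 and 4668 CPM in the collagen-high and 67.4, 15.5, 434 and 1001 CPM in the collagen-low cells. The difference was 3.27, yet cell 3 exceeded cell 8, and within the 7 cells it was -0.36. Fn1, fibronectin, spanned 11.4, 227, 1512 and 295 CPM within the collagen-low cells alone, and cell 1 had more of it than any collagen-high cell. Matrix proteases and their inhibitors had a median of 0.16 over 24 genes, with 14 above 0, and of 0.28 within the 7 cells, 0.46 without cell 8 and 0.054 without cell 11. Mmp11 and Mmp19, both matrix metalloproteinases, lay apart. Mmp11 had 45.9, 41.5, 46.6 and 46.2 CPM in the collagen-high, 35.3, 33.8 and 35.2 CPM in the between and 30.1, 15.3, 19.4 and 14.8 CPM in the collagen-low cells, an order of groups without overlap, at a difference of 1.19 and of 1.04 within the 7 cells. Mmp19 had a difference of 1.71, 1.13 without cell 9 and 1.10 within the 7 cells, and cell 4 with 20.4 CPM had more of it than any collagen-high cell. Integrins and collagen receptors had a median of 0.23 over 9 genes, -0.02 without cell 12 and -0.37 within the 7 cells, and none lay apart.

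**Figure D3:**
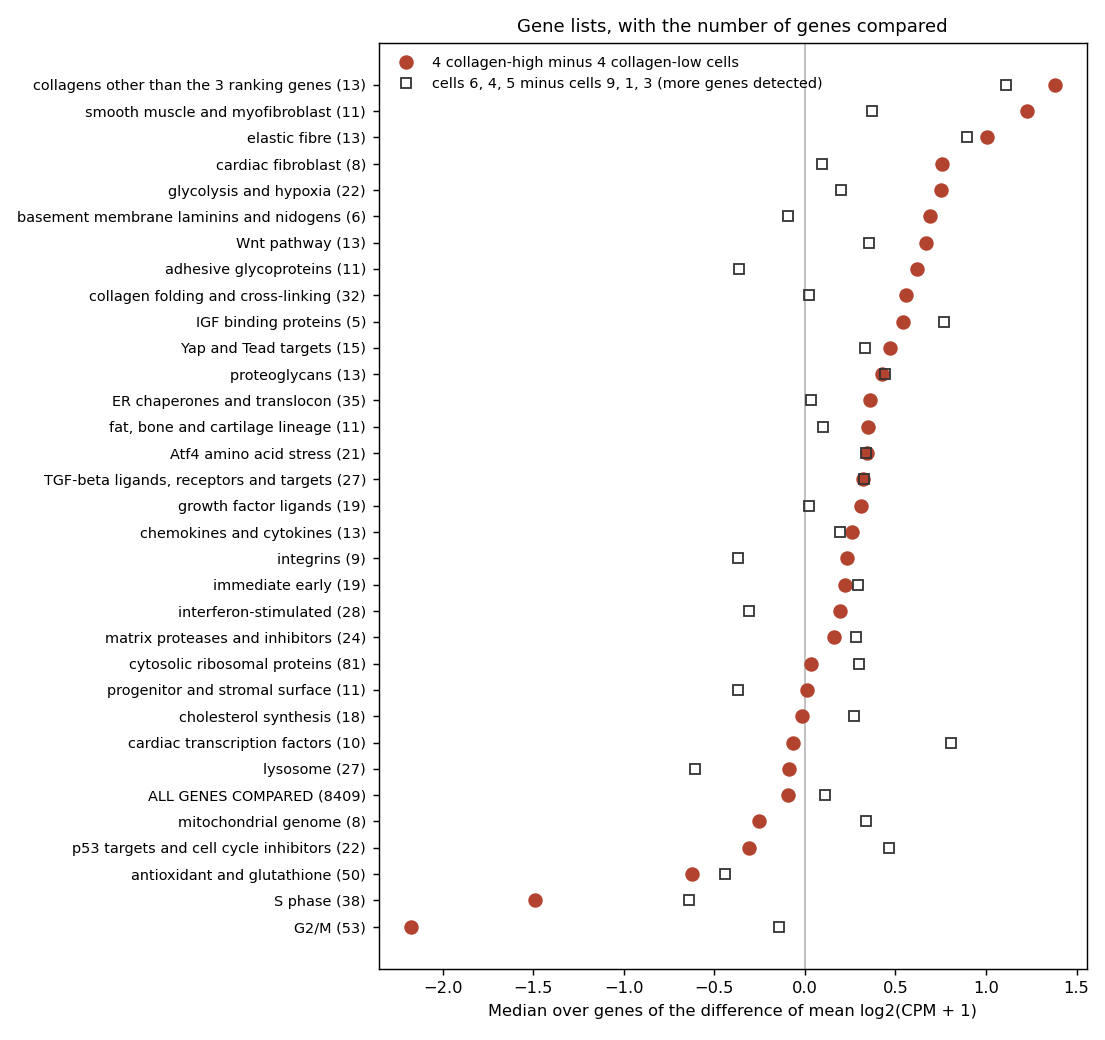
Each row is a gene list with at least 5 genes compared, their number in brackets. Filled circles give the median difference of mean log2(CPM + 1) between 4 collagen-high and 4 collagen-low cells, and open squares the same between cells 6, 4, 5 and cells 9, 1, 3. Further collagens lie at 1.38 and 1.11, while the contractile, ER and folding lists lie nearer to 0 within the 7 cells.

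Of 24 contractile genes of smooth muscle and myofibroblasts listed, 11 were compared. All 11 had a difference above 0, at a median of 1.23, and of 0.37 within the 7 cells. Vcl, Tpm1 and Myl6 lay apart. Vcl, vinculin, which links adhesions to actin (chr14:20929398-21033676), had 110.2, 53.5, 110.1 and 64.7 CPM in the collagen-high cells, 33.5, 11.5 and 12.3 CPM in the cells between and 50.4, 27.7, 22.6 and 11.1 CPM in the collagen-low cells. Its difference was 1.68, but -0.17 within the 7 cells. Vcl overlaps Ap3m1 on the other strand, as Mmp19 does Tmem198b. Tpm1, tropomyosin 1, had 518, 547, 859 and 692 CPM in the collagen-high and 284, 237, 409 and 202 CPM in the collagen-low cells, with differences of 1.23 and, within the 7 cells, 0.10. Myl6, a myosin light chain of non-muscle and smooth muscle cells, had 1236, 2016, 2236 and 1673 CPM in the collagen-high and 1175, 520.3, 894 and 618 CPM in the collagen-low cells, with differences of 1.20 and 0.98. The list did not follow the collagen sum among the collagen-high cells: its mean log2 level was 6.75, 8.28, 9.33 and 8.17 in cells 12, 8, 11 and 7, so that the cell richest in collagen was the lowest of these 4 and lay below cells 2 and 1. Acta2, smooth muscle actin, the usual marker of myofibroblasts, was spread over 1.76, 114, 3668 and 90.7 CPM in the collagen-high and 4.44, 2.93, 117 and 0 CPM in the collagen-low cells. It was abundant in cell 11 only.

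Ctgf, a matricellular protein induced by TGF-beta and by Yap and Tead and now also called Ccn2, had the third largest positive difference of all genes that lay apart, 3.69, with 2.76 within the 7 cells. It had 2538, 5722, 1268 and 779 CPM in the collagen-high cells, 487, 832 and 663 CPM in the cells between and 587, 79.9, 14.8 and 684 CPM in the collagen-low cells. The width of the difference comes from cells 9 and 1, since cells 2 and 3 lay close under cell 7. Of 15 Yap and Tead targets compared 11 were above 0, with a median of 0.47 and 0.33 within the 7 cells, a median that ran from 0.14 without cell 11 to 1.20 without cell 12, and Ctgf, Crim1 and Amotl2 lay apart. Crim1, a transmembrane protein that binds bone morphogenetic proteins (chr17:78200248-78376592), had 55.2, 41.5, 92.4 and 153 CPM in the collagen-high, 35.6, 42.7 and 60.9 CPM in the between and 16, 11.1, 16.8 and 29.3 CPM in the collagen-low cells. Its differences were 2.07 and 1.31, and it lay apart in both comparisons, although it overlaps Fez2 on the other strand and the strand setting of the counts is not known. Amotl2, an angiomotin that restrains Yap, had 66.6, 236, 159 and 61.2 CPM in the collagen-high and 34.6, 46.7, 46.3 and 61.2 CPM in the collagen-low cells, with differences of 1.25 and 0.91. Cells 7 and 3 were level to within 1 CPM. Vgll3, a cofactor that competes with Yap for Tead factors and is not on the list, was among the 15 genes with the largest positive difference, 2.53, and 1.88 within the 7 cells, with 111, 128, 173 and 149 CPM in the collagen-high and 65.7, 10.3, 6.66 and 58.5 CPM in the collagen-low cells.

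The core letters to which Tead factors bind, CATTCC or GGAATG on the other strand, occurred in 9 of 14 promoters found for the Yap and Tead list and in 12.6% of all promoters of the same 250 bases. Among genes that lay apart and higher they occurred in 8 of 85 promoters, 9.41%, which is near the 9.79% of all genes compared, and among lower genes in 11 of 79, 13.9%. The promoter of Crim1, the member of the list that lay apart in both comparisons, is printed from chr17:78199998-78200247, plus strand, with its match in capitals, which begins 79 bases before the start.
Crim1: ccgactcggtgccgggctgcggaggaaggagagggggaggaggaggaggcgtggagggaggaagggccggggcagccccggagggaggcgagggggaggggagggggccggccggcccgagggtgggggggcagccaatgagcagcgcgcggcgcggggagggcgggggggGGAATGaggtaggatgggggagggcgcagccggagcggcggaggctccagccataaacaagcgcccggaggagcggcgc

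TGF-beta ligands, receptors and targets had a median of 0.32 over 27 genes, 17 of them above 0, 0.33 within the 7 cells and 0.52 without cell 8. Besides Ctgf, the targets Id2 and Smad7 lay apart. Id2, an inhibitor of differentiation factors, had 247, 581, 266 and 382 CPM in the collagen-high and 132, 71.7, 223 and 72.8 CPM in the collagen-low cells, a difference of 1.63, and its highest value was 622 CPM in cell 4. Smad7, the inhibitory Smad of the pathway, had 114, 168, 147 and 167 CPM in the collagen-high and 84.9, 27.9, 57.9 and 66.2 CPM in the collagen-low cells, a difference of 1.40. Both had a difference of 0.98 within the 7 cells.

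Some secreted signals lay apart. Il6, the cytokine interleukin 6 (chr5:30013114-30019981), had 365, 106, 300.1 and 180.3 CPM in the collagen-high cells, 102, 68.5 and 91.9 CPM in the cells between and 66.7, 2.1, 55.9 and 60.1 CPM in the collagen-low cells. It lay apart in both comparisons, at 2.88 and 1.98, with the 3 groups in order without overlap, and cell 9 was far under the others. Without cell 9 the difference was 1.80. Csf1, the growth factor of macrophages (chr3:107741048-107760469), had 2245, 815, 2480.1 and 1311 CPM in the collagen-high, 602, 535 and 329 CPM in the between and 534, 228, 473 and 725 CPM in the collagen-low cells. Its difference was 1.79, but 0.15 within the 7 cells, and cells 8 and 3 nearly met. Vegfa, the endothelial growth factor (chr17:46016993-46032369), had 552, 227, 259 and 253 CPM in the collagen-high, 51.8, 130.4 and 61.9 CPM in the between and 58.8, 135, 105 and 65.1 CPM in the collagen-low cells. The difference of 1.80 was -0.38 within the 7 cells, so the cells between did not share it. Over the lists these genes belong to, the medians were 0.26 for 13 chemokines and cytokines, 0.31 for 19 growth factors and 0.75 for 22 genes of glycolysis and hypoxia, and within the 7 cells 0.19, 0.02 and 0.20. Without cell 12 the median of the chemokines and cytokines was -1.13, and it was also below 0 without cell 2 or cell 9. It rose to 0.83 without cell 8. The median of the growth factors ran from -0.02 without cell 9 to 0.88 without cell 3. Of the genes of glycolysis and hypoxia 21 were above 0, and their median fell to 0.20 without cell 12.

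**Figure D4:**
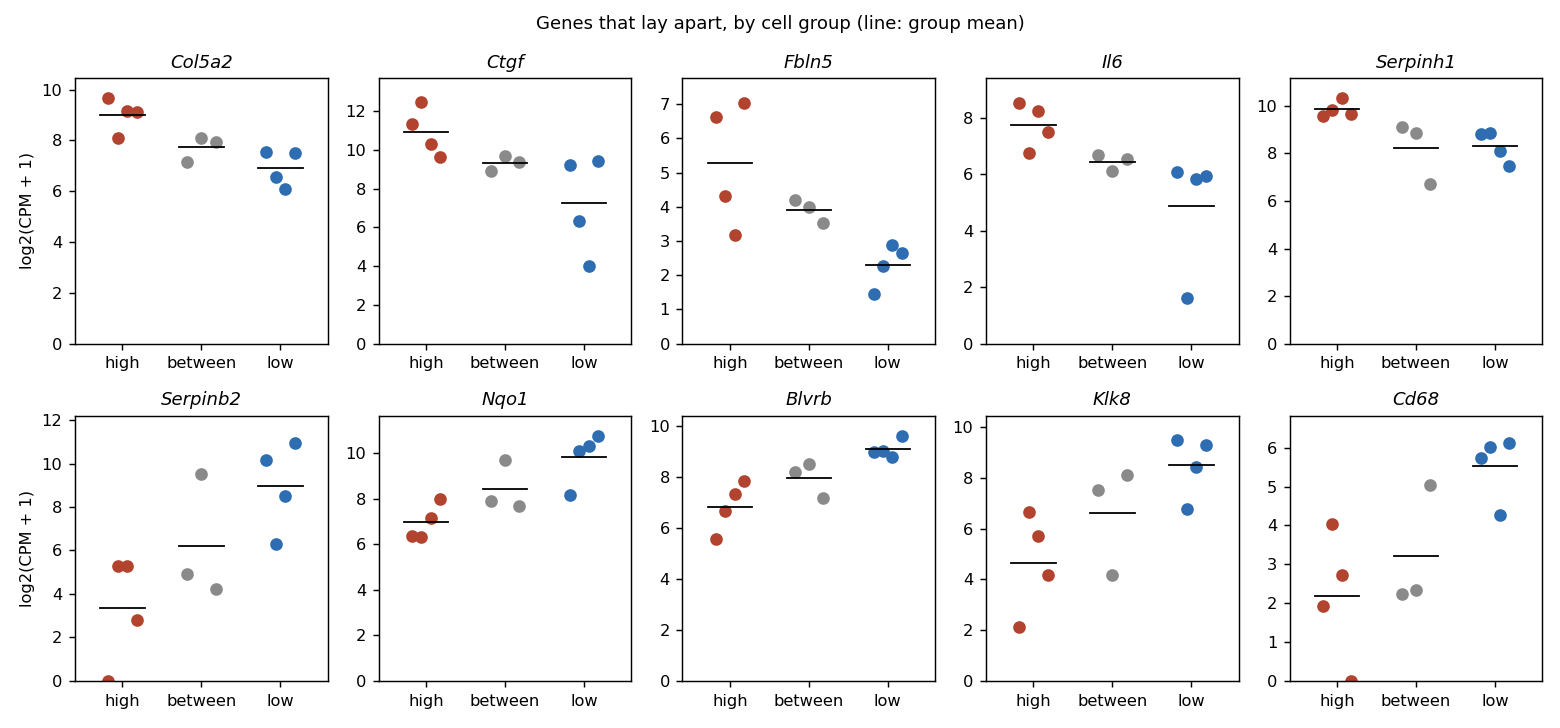
Each point is a cell and each short line a group mean of log2(CPM + 1), for 5 genes that lay apart and higher (top) and 5 that lay apart and lower (bottom) in 4 collagen-high against 4 collagen-low cells. Il6 and Fbln5 keep the order of the 3 groups in their means, and the mean of Serpinh1 in the cells between lies near that of the collagen-low cells.

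The other genes among the 15 with the largest positive differences had no common role among the lists. Clca3a1, of the family of chloride channel regulators, led with 4.40, and 2.62 within the 7 cells, from 326, 63.1, 512 and 292 CPM in the collagen-high to 12.1, 0.21, 14.5 and 63 CPM in the collagen-low cells. It has close copies beside it in the genome, between which reads can be split, and cells 8 and 3 had almost the same value. Avpr1a, the vasopressin receptor of vascular smooth muscle, followed at 4.21, a gene that reached the mean of 10 CPM only through the collagen-high cells, with 67.3, 17.6, 18.9 and 17.5 CPM in the collagen-high cells and 2.96, 0, 0 and 0 CPM in the collagen-low cells. It had 0 to 0.479 CPM in the cells between, and its difference within the 7 cells was 0.19. Among the ranked cells, only the collagen-high ones had more than 3 CPM of it. Ckb, brain-type creatine kinase, had 214, 373, 125 and 153 CPM in the collagen-high and 19.3, 18.9, 46 and 43.8 CPM in the collagen-low cells, a difference of 2.71, with 0.63 within the 7 cells. Pak3, a kinase downstream of Rac and Cdc42, lay apart in both comparisons at 2.29 and 2.10, with 69.6, 61.6, 143 and 92.6 CPM in the collagen-high and 27.4, 7.76, 29.2 and 12.9 CPM in the collagen-low cells. The differences of the rest were 3.60 for 1190002N15Rik, 3.07 for Dixdc1, a protein of Wnt signalling, 2.47 for the formin Fhdc1, 2.46 for the homeobox gene Lhx9, 2.40 for Prag1 and 2.28 for Unc13c. Within the 7 cells they were, in the same order, 1.91, 1.84, -1.02, 1.71, 0.31 and 2.20, so that Fhdc1 was turned, and without cell 2 Fhdc1 was at 1.502.

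Among the genes that lay apart and lower, Serpinb2, the plasminogen activator inhibitor 2 (chr1:107511423-107535478), had the largest difference, -5.64, with -2.36 within the 7 cells. It had 0, 38.4, 37.7 and 5.9 CPM in the collagen-high cells, 29.2, 741 and 17.5 CPM in the cells between and 1138, 76.5, 365 and 1987 CPM in the collagen-low cells. Cells 3 and 2 were the richest, cell 9 lay nearest to the collagen-high cells, and cell 12 had none. Klk8, a secreted kallikrein protease (chr7:43797577-43803826), had 3.34, 99.4, 51.6 and 16.9 CPM, 182, 16.8 and 279 CPM and 713, 108, 338 and 625 CPM in the same order of groups, a difference of -3.82, with -1.56 within the 7 cells. Cells 8 and 9 nearly met.

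Genes of the antioxidant and glutathione system, a list made after the values were seen, had a median of -0.62 over 50 genes, 38 of them below 0, and -0.44 within the 7 cells. Of these 50 genes 6 lay apart and lower, Nqo1, Blvrb, Gpx3, Gss, Esd and Ggct, and none higher. Over all genes compared 1.25% lay apart and lower, but the list was chosen with the values known, so its count is no support. In the mean log2 level of the list the groups overlapped, cell 7 with 8.07 lying above cells 2 and 9 with 7.82 and 7.98. Nqo1, a quinone reductase induced by oxidants (chr8:107388225-107403206), had 82.6, 79.1, 141 and 257 CPM in the collagen-high cells, 239, 835 and 206 CPM in the cells between and 288, 1096, 1278 and 1739 CPM in the collagen-low cells. It lay apart in both comparisons, at -2.87 and -1.96, although cell 2 had little more than cell 7. Blvrb, biliverdin reductase B (chr7:27447978-27466144), had 45.7, 99.1, 159 and 225 CPM, 289.8, 361 and 141 CPM and 499, 518, 442 and 774 CPM. Its differences were -2.26 and -1.19, again apart in both, and the collagen-low cells held it evenly but for a higher cell 3. Gpx3, the secreted glutathione peroxidase, had 9.84, 0.364, 5.59 and 13.3 CPM in the collagen-high and 277, 34.6, 415 and 74.9 CPM in the collagen-low cells, but 947 CPM in cell 6, so that its difference of -4.44 became -0.44 within the 7 cells. Gss, glutathione synthetase, differed by -1.60, and Esd by -1.13, with -0.82 and -0.56 within the 7 cells. Ggct, a gamma-glutamylcyclotransferase, differed by -2.78 and was turned within the 7 cells, at 0.31.

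Cell cycle genes had the most negative medians of the lists with at least 5 genes, with wide overlap. S phase genes had a median of -1.49 over 38 genes, 37 of them below 0, and G2/M genes a median of -2.18 over 53 genes, 50 of them below 0, yet in both lists together only Gtse1 lay apart. Gtse1, a microtubule-bound protein of G2 phase, had 16, 78.9, 9.02 and 0 CPM in the collagen-high and 127, 238, 126 and 83.6 CPM in the collagen-low cells, a difference of -3.64, with -0.88 within the 7 cells. Cell 8 had almost as much as cell 3. The mean log2 level of the G2/M list was 3.96, 6.99, 2.21 and 2.68 in the collagen-high cells, 4.61, 4.72 and 7.36 in the cells between and 6.44, 8.10, 6.63 and 2.81 in the collagen-low cells, and that of the S phase list was 6.41, 6.06, 2.45 and 2.71, 3.87, 4.13 and 5.69 and 7.21, 5.90, 6.94 and 2.78. Cell 8 was high in both lists and cell 12 in S phase, where both lay above cell 9 of the collagen-low group. Cell 3 was low in both lists, against its group, and cells 11 and 7 were low in both. Within the 7 cells the medians were -0.64 for S phase and -0.14 for G2/M, the second close to 0. With 1 cell left out, the S phase median ran from -0.63 without cell 11 to -2.40 without cell 3, and that of G2/M from -1.29 without cell 9 to -3.32 without cell 8. The part of the cell cycle in the other differences was not tested.

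**Figure D5:**
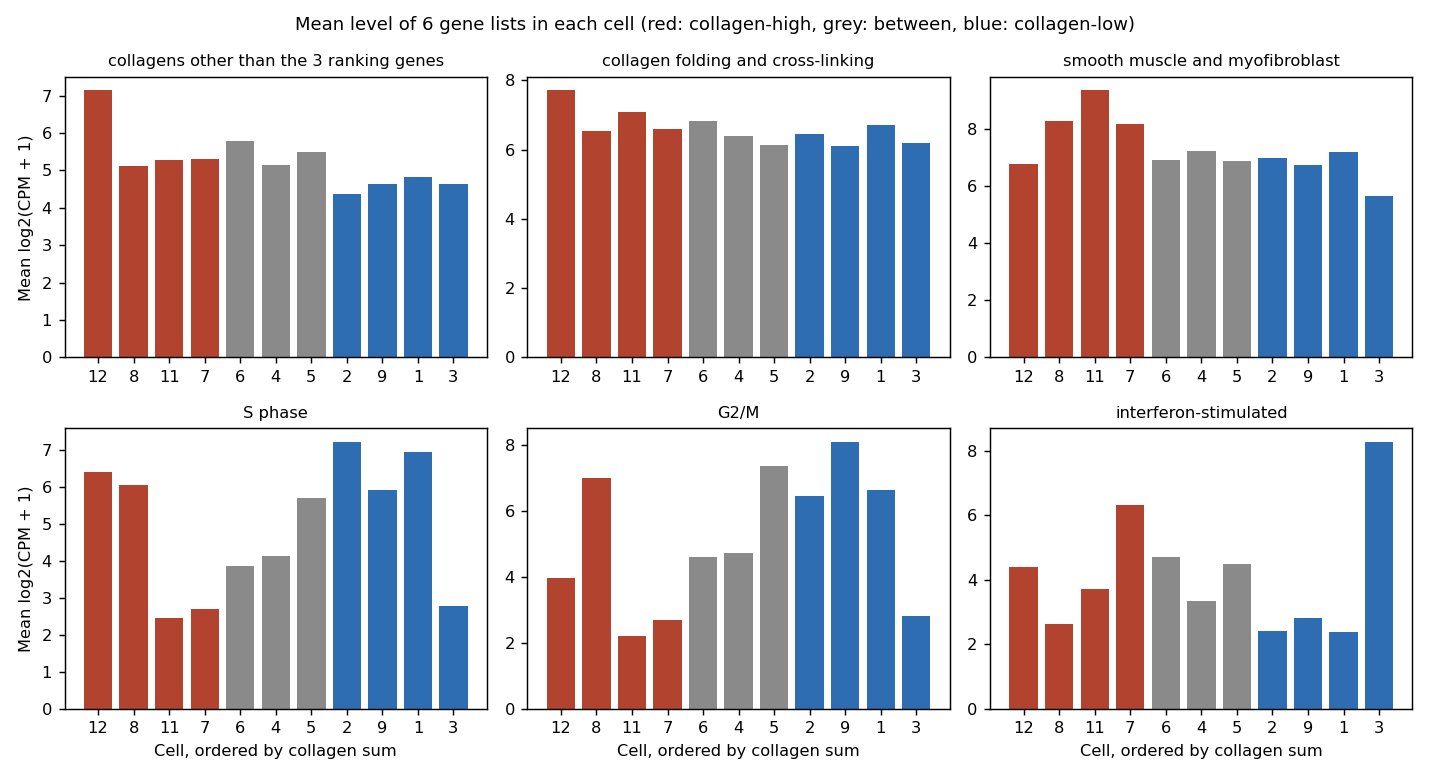
Bars give the mean log2(CPM + 1) over the genes compared of 6 lists in each of the 11 cells, ordered by collagen sum, in red for collagen-high, grey for between and blue for collagen-low cells. Cells 11, 7 and 3 have the lowest S phase and G2/M levels, and cell 3 alone reaches 8.28 in the interferon-stimulated list.

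Marker genes of other cell types were low in most cells, with exceptions in cells 3 and 11. The 6 macrophage markers summed to 2.99 to 41.1 CPM in the collagen-high, 15.1 to 45.4 CPM in the between and 68.0 to 1623 CPM in the collagen-low cells, of which the last is cell 3 through Cd53. Every collagen-low cell thus lay above every other ranked cell in this sum, but in cells 2 and 9 through Cd68. Cd68 made 52.1 of 75.6 CPM in cell 2 and 64.4 of 69.8 CPM in cell 9. Cell 7 had 41.1 CPM and no Cd68, so without Cd68 cells 2 and 9 would lie under it. The part of these markers in the other differences was not tested. Cd68, a protein of macrophage lysosomes that other cells also make (chr11:69664213-69666153), was the member that lay apart, at -3.37, with -2.27 within the 7 cells, and it reached a mean of 10 CPM mainly through the collagen-low cells. It had 2.81, 15.5, 5.59 and 0 CPM in the collagen-high, 3.72, 4.07 and 32 CPM in the between and 52.1, 64.4, 18.2 and 69.1 CPM in the collagen-low cells. Ptprc, the common leukocyte antigen, was at 0 in 9 of the 11 cells, cells 7 and 2 being the exceptions, and Adgre1 did not exceed 1.58 CPM. Endothelial markers summed to 3.97 to 30.2 CPM in the collagen-high and 0.629 to 58.5 CPM in the collagen-low cells, with Kdr and Tek at 0 in all 11. Myh6, Myh7, Actc1 and Actn2 of cardiomyocytes and Upk3b, Krt8 and Krt18 of the epicardium were at 0 in all 11 cells. Tnnt2, cardiac troponin T, was the single gene of the longer cardiomyocyte list that was compared, with 86.6, 59.1, 0 and 5.9 CPM in the collagen-high and 2.72, 1.89, 5.21 and 3.96 CPM in the collagen-low cells, and it reached the mean of 10 CPM through cells 12 and 8, which alone had more than 6 CPM. The longer endothelial and epicardial lists had 2 compared genes each. Mural markers summed to 2.28 to 3733 CPM in the collagen-high and 0 to 119 CPM in the collagen-low cells, the highest through Acta2 in cell 11.

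The sum of fibroblast markers overlapped between collagen-high and collagen-low cells through cell 3 alone. Single markers such as Pdgfra overlapped through other cells too. The 12 markers fixed for fibroblasts besides the ranking genes summed to 830 to 1460 CPM in the collagen-high, 696 to 987 CPM in the between and 370 to 2737 CPM in the collagen-low cells, with medians of 1134, 705 and 708 CPM. The cell with the most was cell 3, the poorest in collagen I. The other collagen-low cells, 2, 9 and 1, had 691, 369.8 and 726 CPM, under every collagen-high cell. Gelsolin (Gsn) made much of the sum in most cells, with 272, 777, 549 and 505 CPM in the collagen-high and 512, 79.9, 290 and 2103 CPM in the collagen-low cells. Without Gsn, cell 1 would lie above cells 11 and 7, and cell 9 above cell 11. Dcn, decorin, a proteoglycan of resident fibroblasts, was at 0 in all ranked cells but 7, 6 and 3, and Lum in all but cell 6. Pdgfra, the platelet-derived growth factor receptor of fibroblasts, had 157, 107, 8.48 and 6.09 CPM in the collagen-high and 0.247, 65.4, 84.8 and 276 CPM in the collagen-low cells. Cells 11, 7 and 2 had little of it. The 8 genes of the longer fibroblast list that were compared had a median of 0.76, with 6 above 0, and 0.09 within the 7 cells. In their mean log2 level, cell 1 with 6.10 and cell 3 with 6.20 lay above cells 11 and 7 with 5.63 and 5.72.

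Cell 3 stood apart from the other ranked cells. It had 1463 CPM of the leukocyte tetraspanin Cd53, where the others had at most 19.4 CPM, 2103 CPM of gelsolin (Gsn) and 223 CPM of Dcn. Its mean log2 level over 28 interferon-stimulated genes was 8.28, against 2.37 to 2.81 in the other collagen-low cells and 2.64 to 6.33 in the collagen-high cells. With cell 3 left out of the collagen-low group, 133 genes lay higher and 290 lower, among them 89 of the 104 and 100 of the 105, the rule being easier to meet with fewer cells.

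In most of the remaining lists no gene lay apart. Ribosomal protein genes had a median of 0.03 over 81 genes, cholesterol synthesis -0.02 over 18, lysosome -0.09 over 27, progenitor and stromal surface genes 0.01 over 11, and interferon-stimulated genes 0.19 over 28. These medians were 0.30, 0.27, -0.61, -0.37 and -0.31 within the 7 cells. Targets of Atf4 had a median of 0.34 over 21 genes, Wnt genes 0.67 over 13, genes of fat, bone and cartilage 0.35 over 11, IGF binding proteins 0.54 over 5, p53 targets -0.31 over 22 and cardiac transcription factors -0.06 over 10. For these the medians within the 7 cells were 0.34, 0.35, 0.10, 0.77, 0.46 and 0.80, so that p53 targets and cardiac transcription factors changed sign. Single cells set several of these medians. That of the interferon-stimulated genes was 1.74 without cell 3 and -0.21 without cell 7, and below 0 without cell 2, 9 or 1. That of the Atf4 targets was -0.22 without cell 3, 0.051 without cell 12 and 0.057 without cell 8. Without cell 3 it was 0.017 for IGF binding proteins and 0.28 for Wnt genes, and without cell 1 it was -0.11 for p53 targets. The medians of ribosomal, cholesterol, lysosome, progenitor and cardiac transcription factor genes took either sign with 1 cell left out. None of these 11 lists had a gene that lay apart. Sfrp1, a Wnt antagonist of the Wnt list, came close, with 241, 143, 144 and 418 CPM in the collagen-high and 33.6, 34.2, 180.4 and 3.96 CPM in the collagen-low cells, and only cell 1 broke the order. Its difference was 2.73, with 3.01 within the 7 cells. Immediate early genes had a median of 0.22 over 19 genes, 0.29 within the 7 cells and 0.022 without cell 11, and Fos lay apart and lower at -2.99, with 4.75, 0, 8.66 and 0 CPM in the collagen-high and 19.8, 9.85, 31.6 and 29.5 CPM in the collagen-low cells. Its value of 1318 CPM in cell 6 turned the difference within the 7 cells to 0.47. Mitochondrially encoded genes had a median of -0.25 over 8 genes, all below 0, but 0.34 within the 7 cells, where all 8 were above 0. Their median was -0.48 without cell 9, -0.15 without cell 3 and -0.10 without cell 1. They took 1.13 to 1.32% of counts in the collagen-high, 1.48 to 2.77% in the between and 1.02 to 2.33% in the collagen-low cells.

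Of the other genes with large negative differences, Plcg2, Mgam and Sema3e had 0 counts in all 4 collagen-high cells. Against a floor of 3 counts over the group, the collagen-low cells pooled had at least 181-fold more of Plcg2, a phospholipase C of blood cells, at least 229-fold more of Mgam, a starch-splitting enzyme, and at least 283-fold more of Sema3e, a guidance semaphorin. All 3 passed the filter only through the collagen-low cells. Single cells carried much of this, since the bound was 43.6-fold for Mgam without cell 3 and 143-fold for Sema3e without cell 2. Sema3e was nearly limited to cells 2 and 3, with 95.1, 1.89, 0.29 and 59.3 CPM in the collagen-low cells and 0 in the cells between. In cell 1 this was 1 count, under the floor, by which the groups did not overlap. It had a difference of -3.60, with -2.60 within the 7 cells. Mgam had 1.73, 5.87, 11 and 113 CPM in the collagen-low cells, where cell 3 held most of it, and 1.59, 45.8 and 11.3 CPM in the cells between, with cell 4 next to cell 3. Plcg2 was more even, at 21.5, 39.2, 7.53 and 25.3 CPM in the collagen-low and 8.24, 9.35 and 9.75 CPM in the between cells. The differences of the rest were -4.80 for Vmn2r79, -3.49 for Gm5141, -3.41 for the ubiquitin ligase Rnf128, -3.26 for adenosine deaminase (Ada), -3.24 for Rhebl1 and -3.02 for Zfp81. In the same order they were -2.93, 0.90, -1.42, -1.55, -1.01 and -0.05 within the 7 cells. Vmn2r79, Gm5141 and Zfp81 belong to large families with close copies, between which reads can be split, so their counts are uncertain.

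Over all 11 cells, Spearman's rho with the collagen sum was computed for genes whose mean reached 50 CPM, as a description of cells that share a culture and differ in depth. The highest were Hadha, a subunit of the mitochondrial trifunctional protein (rho 0.95), Il6 (0.93), the Wnt receptor Ryk (0.92), Hsp90b1 (0.91) and the Golgi protein Gorab (0.88). The lowest were the dynein light chain Dynll2 (-0.92), Nqo1 (-0.91), the proteasome inhibitor Psmf1 (-0.89), Blvrb (-0.88) and Rabepk (-0.88). Hadha went from 101, 126, 98.3 and 105 CPM in the collagen-high through 79.96, 67.3 and 71.2 CPM in the between to 66.2, 57.2, 39.7 and 35.3 CPM in the collagen-low cells, a difference of 1.14, with 0.74 within the 7 cells. Ryk had 157, 119, 128 and 179.5 CPM, 118, 97.1 and 113 CPM and 90.1, 59.7, 63.7 and 57 CPM, a difference of 1.10, with 0.85 within the 7 cells. Both were ordered by group in nearly every cell, at a small size of difference. Dynll2 ran the other way, with 52, 55.6, 61.9 and 88.6 CPM in the collagen-high and 98.3, 129, 148 and 163 CPM in the collagen-low cells, a difference of -1.06 and of -0.65 within the 7 cells.

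Within the 7 cells with more genes, 340 genes lay apart and higher in cells 6, 4 and 5 (4.04%) and 103 lower (1.22%), with a median over all genes of 0.11. Groups of 3 cells are more easily separated than groups of 4, so these counts are not comparable with those above. Of the 104 higher genes 11 (10.6%) also lay higher here, and of the 105 lower genes 9 (8.57%) also lay lower, which are 3.24% of the 340 and 8.74% of the 103. Genes named above that lay apart in both comparisons were Fbln5, Il6, Gpc4, Crim1, Mmp11, Pak3, Nqo1 and Blvrb, besides Sema3e, which does so through 1 count in cell 1. The choice of ranking gene mattered as well. Where cells were ranked by Col3a1 alone, cells 7, 4, 12 and 3 came out highest and cells 6, 2, 1 and 9 lowest, and 30 genes lay higher and 173 lower, of which 3 and 5 were among the genes counted here.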

How the data were processed

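Polyadenylated RNA of 12 single cultured CPCs was measured. Per the labels and the study's methods, libraries were made with the Smart-Seq v4 and Nextera XT kits, and the authors aligned reads to mm10 with STAR 2.5.2b at default settings and kept uniquely mapped reads. The deposited table holds raw read counts per gene for 21729 genes, of which 7267 had no count in any cell. The counting program, the annotation and the strand setting are not given in the sources used here. The reads carry no molecular identifiers, so that amplification copies are counted.

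Counts were divided by the total of the cell, from 3453708 to 5690184, and scaled to CPM. Cell 10 was left out, and the other 11 cells were ranked by the CPM of Col1a1, Col1a2 and Col3a1. Genes whose mean reached 10 CPM were compared as differences of mean log2(CPM + 1), and a gene lay apart under the rule given with the counts. The labels put all cells in 1 group and the cells were chosen by their own expression, so no test was made and no p-value is given; cells are also too few to stand for a culture. The cells, the lists and the comparisons were chosen with earlier results of these data known. The genes named were the 15 with the largest difference in each direction among those that lay apart, up to 4 members of each of 35 lists that lay apart or, where none did, up to 2 with the largest difference, every collagen compared, and the 5 genes with the highest and the 5 with the lowest Spearman correlation with the collagen sum. An antioxidant and glutathione list was added after the values were seen. Acta2, Cnn1, Myh11, Des, Rgs5, Cspg4, Tagln, Mcam, Pdgfra, Dcn, Lum, Cd53, Gsn and Ptprc are markers. Hspa5, Pdia6, Calr, Canx, Dnajc3 and Creld2 were named for a promoter element and not for their values.

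No pair of the 11 cells matched within sampling noise, the smallest chi-square per degree of freedom over 55 pairs being 48.5, a check for a library deposited more than once that covers counting error only. Positions come from GENCODE vM21 (GRCm38), matched by symbol for 98.4% of genes, and Ctgf has no position there. Promoters come from RefSeq (GRCm38.p6). The last 65 bases of the Hsp90b1 window are not printed because another transcript counts them as untranslated. Python 3.11.15, pandas 2.3.3, numpy 2.4.6, scipy 1.17.1 and matplotlib 3.10.9 were used, and the comparison was tested on simulated data.

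Alternatives were another pseudocount, filter, scaling, depth, call rule, group size and ranking gene, each cell left out in turn, and cell 3 left out, of which the fit without cell 3 in groups and filter was chosen after seeing the data.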

Additional observations from a re-analysis of the deposited data

Results flagged for a closer look

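In groups of 4 cells, 142 sets of values (the lists, the collagen sum, the genes detected, the ranking genes and the 30 genes with the largest differences) were checked for a single cell far from the other 3, and 13 met the rule, 3 of them in cell 3 and 3 in cell 12. Chance meets it in about 5% of sets of independent values, but that share is no measure here, since the ranking genes and the collagen sum chose the groups, the 30 genes were picked for their differences, and any count meets the rule where the other 3 cells are at 0. Values are on the log2(CPM + 1) scale, as means over the genes of a list.

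Cell 3 lay at 8.279 in the interferon-stimulated list (2.373 to 2.806 in the other collagen-low cells), at 6.153 in the endothelial list (3.94 to 4.281) and at 3.834 in cardiac transcription factors (4.713 to 4.839). Cell 12 lay at 7.138 in the further collagens, where the other collagen-high cells had 5.129 to 5.3. Cell 2 had 5.86 in the integrin list, under 6.741 to 6.8 in the other collagen-low cells. Cell 11 had 4.544 in the Atf4 list, under 6.028 to 6.152, and cell 7 had 8.069 in the antioxidant and glutathione list, over 7.156 to 7.206 in the other collagen-high cells. The other collagen-high cells are therefore further from the collagen-low cells in that list than cell 7 is.

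Among single genes, Il6 was at 1.631 in cell 9, against 5.83 to 6.08 in the other collagen-low cells. Avpr1a was at 6.094 in cell 12, against 4.209 to 4.318 in the other collagen-high cells, and at 1.987 in cell 2, where the other collagen-low cells had 0. Lhx9 was at 5.526 in cell 8, against 4.977 to 5.067. Gm5141 was at 0.2336 in cell 12 and Vmn2r79 at 2.509 in cell 11, with 0 in the other collagen-high cells, and the first of these is 1 count.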

How the results depend on the processing

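The number of genes that lay apart depended on the rule and on which cells were chosen. The 104 higher genes became 53 at a mean of at least 50 CPM, 175 without the requirement on size, 470 without the requirement of no overlap, 19 at a difference of at least 2, 216 with 3 against 3 cells, 33 with 5 against 5, 64 ranked by Col1a1 alone, 30 by Col3a1 alone and 50 by the mean log2 of the 3 genes, and 815 and 340 within the 7 cells with more genes at 2 against 2 and 3 against 3. The 105 lower genes became 54 with a pseudocount of 10, 233 at a mean of at least 1 CPM, 241 without a filter, 25 at 50 CPM, and 164, 988, 37, 238 and 30 under the same changes of size, overlap and number of cells. They became 51, 59, 173 and 50 ranked by Col1a1, Col1a2, Col3a1 and the mean log2, 189 with cell 3 left out and the others ranked again, 263 within the 7 cells at 2 against 2, and 284 with cell 3 left out of groups and filter, an alternative chosen after seeing the data. Leaving out 1 cell gave 133 to 253 higher and 133 to 290 lower genes, the extremes being without cell 8 (253 higher) and without cell 3 (290 lower). Of the genes counted, 86 of 104 and 92 of 105 remained with median-of-ratios size factors, and 96 and 90 after thinning to equal depth. Most were lost under other rankings, with 34 and 24 remaining by Col1a2 alone, 26 and 17 by Col1a1 alone, 3 and 5 by Col3a1 alone and 35 and 28 by the mean log2, and with 5 against 5 cells, where 29 and 27 remained. With cell 10 ranked, 58 and 47 remained.

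Ranking by Col3a1 alone kept 5 of the 8 cells. It moved the further collagens to 0.66 and the smooth muscle list to 0.094, and turned the 4 macrophage and blood genes (-2.51, and -1.03 without cell 3), which reached the filter mostly through collagen-low cells, to 0.38, the antioxidant list to 0.013, 1190002N15Rik to -0.023, Hspg2 to -0.16, Lhx9 to -0.35, Mgam to 0.80, Unc13c to -0.24 and Vcl to -0.030. The further collagens moved to 0.57 without a filter and 0.56 ranked by Col1a1. Within the 7 cells, at 2 against 2 and 3 against 3, p53 targets turned to 0.054 and 0.46, Fhdc1 to -0.40 and -1.02, Fos to 1.18 and 0.47, Ggct to 0.22 and 0.31, Gm5141 to 0.12 and 0.90 and Vegfa to -0.0062 and -0.38. At 2 against 2, G2/M moved to 0.066, Csf1 to -0.045 and Zfp81 to 0.17, and at 3 against 3 Vcl turned to -0.17. Fos was 0.071 ranked by Col1a2. IGF binding proteins turned to -0.32 at 50 CPM, -0.11 with cell 10 ranked, -0.0061 and -0.070 ranked by Col1a1 and Col1a2, and -0.061 with cell 3 left out and the others ranked again. Wnt genes turned to 0 without a filter and -0.28 with cell 10 ranked, and fat, bone and cartilage genes to -0.24 at 1 CPM, -0.14 without a filter, -0.24 with 3 against 3 cells and from -0.058 (without cell 7) to 0.53 (without cell 12) with 1 cell left out. The cause was not tested. Within the 7 cells at 3 against 3, 11 of 36 list medians, 6 of 58 differences of named genes that lay apart and 16 of 46 of named genes that did not had the opposite sign, and at 2 against 2 these were 17, 7 and 14. Over the settings other than these and leaving out 1 cell, 79 of 610 list medians had the opposite sign, as did 7 of 950 and 29 of 755 values of named genes that did and did not lie apart. With 1 cell left out, 34 of 288 list medians had the opposite sign and 132 moved by over 1.5 times, as did 5 and 81 of 368 values of named genes that did not lie apart. For genes that lay apart the sign is fixed by the rule when 1 cell is left out, and 4 of 464 values moved by over 1.5 times.

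No paired analysis was possible because all cells belong to 1 group and no number pairs them. Of the lower genes 80 of 105 had a mean under 50 CPM, against 51 of 104 of the higher genes, and a count of 0 in a collagen-high cell allows up to 0.527 to 0.571 CPM (3 counts), which covers counting error and not amplification.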
